A study of Mus musculus with 4 samples.

Results

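Mitochondrial ribosomal protein genes encode the proteins of the ribosome that translates mitochondrial messages. They were taken as every protein-coding gene of the count table whose symbol is Mrpl or Mrps followed by a number and at most 1 letter, and 76 of the 37310 genes met this rule. The rule uses symbols alone. RNA-seq had been carried out on HATX cells, mouse embryonic stem cells (mESCs) that carry a doxycycline-inducible *Xist* transgene and that the study describes as haploid. The comparison asks which transcripts change when Spen, an RNA-binding repressor protein needed for silencing by *Xist* RNA, is missing. The groups were the WT HATX line and clone 2 of a *Spen* KO made in this line, with 2 libraries each. All cells shared a mixed genomic background, growth in serum and LIF on gelatin, and no stated treatment. The KO group is a single clone, so any other difference between this clone and the WT line is part of every value below, and nothing in the labels says whether replicates came from separate cultures. P-values therefore measure the spread between these libraries, which may be technical.

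The mitochondrial ribosome builds only the membrane subunits of the respiratory chain and ATP synthase that the mitochondrial genome encodes. Its RNAs come from mitochondrial DNA, whereas all of its proteins are encoded in the nucleus, made in the cytosol and imported. The large subunit joins amino acids and the small subunit decodes the message. Many of its proteins have counterparts in bacterial ribosomes and the others are specific to mitochondria. Of the 76 members, 30 encode large subunit proteins with a bacterial counterpart, 19 encode mitochondria-specific large subunit proteins, 16 encode small subunit proteins with a bacterial counterpart and 10 encode mitochondria-specific small subunit proteins. Symbols and subunits do not always match, since *Mrps30* and *Mrps18a* encode proteins of the large subunit. The last member, *Mrps36*, keeps a ribosomal name although its product belongs to the 2-oxoglutarate dehydrogenase complex of the citric acid cycle.

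The 100 bases before the annotated start are shown for 3 members that were higher and 2 that were lower in the KO-labelled libraries, because the share of promoters with binding motifs of known regulators of these genes is given below. They are RefSeq sequences of build GRCm38.p6, read 5′ to 3′ toward the gene. Capitals mark matches to the GABP motif on either strand. The stretches lie at chr19:45006443-45006542 (minus strand) for *Mrpl43*, chr19:6057756-6057855 (minus strand) for *Mrpl49*, chr19:3282942-3283041 (plus strand) for *Mrpl21*, chr16:92058236-92058335 (plus strand) for *Mrps6* and chr16:84735245-84735344 (minus strand) for *Mrpl39*.
Mrpl43: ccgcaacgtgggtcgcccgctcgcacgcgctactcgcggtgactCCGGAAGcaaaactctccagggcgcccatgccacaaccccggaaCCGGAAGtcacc
Mrpl49: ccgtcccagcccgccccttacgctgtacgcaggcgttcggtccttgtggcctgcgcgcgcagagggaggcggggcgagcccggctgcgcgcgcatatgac
Mrpl21: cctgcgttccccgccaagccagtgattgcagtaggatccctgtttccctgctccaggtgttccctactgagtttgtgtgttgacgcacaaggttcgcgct
Mrps6: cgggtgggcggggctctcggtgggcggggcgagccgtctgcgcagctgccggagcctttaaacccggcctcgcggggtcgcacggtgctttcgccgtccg
Mrpl39: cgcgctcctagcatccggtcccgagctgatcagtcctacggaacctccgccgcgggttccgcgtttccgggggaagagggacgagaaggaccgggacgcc
Of these 5 stretches only that of *Mrpl43* held any of the motifs named in the next paragraph. Its matches began 56 and 12 bases before the start.

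Promoters of 250 bases before to 50 bases after the start were found for 67 of the 76 members. NRF1, GABP and YY1 are transcription factors known for binding at genes of mitochondrial function. Their motifs were searched on both strands as GCGCANGCG, CCGGAAG and AAGATGGCG, none of which contains another. The GABP motif was present in 24 member promoters (35.8%), against 9.93% of all 27025 promoters and 17.8% of the 10397 promoters of tested protein-coding genes. The NRF1 motif was present in 15 (22.4%), against 7.03% and 13.9%, and the YY1 motif in 8 (11.9%), against 1.64% and 3.11%. The E-box CACGTG was present in 5 (7.46%) and the letters CCAAT in 27 (40.3%), against 11.5% and 42.8% of promoters of tested protein-coding genes. Among members that were higher in the KO-labelled libraries and members not called by DESeq2, GABP letters were in 8 of 26 and 15 of 36 promoters. For NRF1 these were 4 of 26 and 10 of 36, and for YY1 3 of 26 and 4 of 36. For the E-box they were 1 of 26 and 4 of 36, and for CCAAT 7 of 26 and 16 of 36. Of the 4 promoters found for lower members, 0 held GABP letters or the E-box, 1 each held NRF1 and YY1 letters and 3 held CCAAT. These matches are descriptions of the sequence and not of binding.

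Total counts ran from 36667685 to 61908422 per library. Genes that mark embryonic stem cells, such as *Pou5f1* and *Nanog*, were all detected, at mean levels from 44.1 to 1832 FPKM (counts scaled to exon length and library total). The 6 extraembryonic endoderm markers summed to 530 and 566 normalized counts in WT and to 285 and 246 in the KO-labelled libraries, and the 7 fibroblast markers to 172 and 192 against 421 and 485, of which *Thy1* gave 118 and 137 against 356 and 414. No marker symbol of either list was at 0 in all libraries, although 1 of the 2 identifiers of *Dab2* was, and the part of such cells in the results was not tested. *Spen* itself was higher in the libraries labelled KO, at 7797 and 6242 normalized counts against 3716 and 3047 in WT, with a log2 fold change of 1.05 ± 0.21 (SE) and a DESeq2 adjusted p of 7.7e-06. Counts summed over the whole gene do not tell which of its exons were read, so they do not check the label, and the group is called KO-labelled throughout. In bulk RNA, fewer cells with a transcript and less transcript per cell cannot be told apart.

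Most members were expressed at moderate levels. The median member stood at 34.0 FPKM as the mean of the 4 libraries, with quartiles at 16.4 and 45.3, and 60 of 76 lay between 10 and 100 FPKM. This median was above the level of 87.4% of tested protein-coding genes. Members of the large subunit had a median of 36.6 FPKM and those of the small subunit 22.9. Highest was *Mrpl42*, which encodes a mitochondria-specific large subunit protein, at 138 and 137 FPKM in WT and 121 and 118 in the KO-labelled libraries. Next came *Mrpl11*, a protein at the base of the stalk that recruits translation factors, at 102 and 102 FPKM in WT and 125 and 142 in the KO-labelled libraries. *Mrpl20* followed, with a mean of 110.0 FPKM and 104 to 115 in single libraries. The order of these genes thus differed between the groups, since *Mrpl11* was below *Mrpl42* in both WT libraries and above it in both KO-labelled ones.

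**Figure D1:**
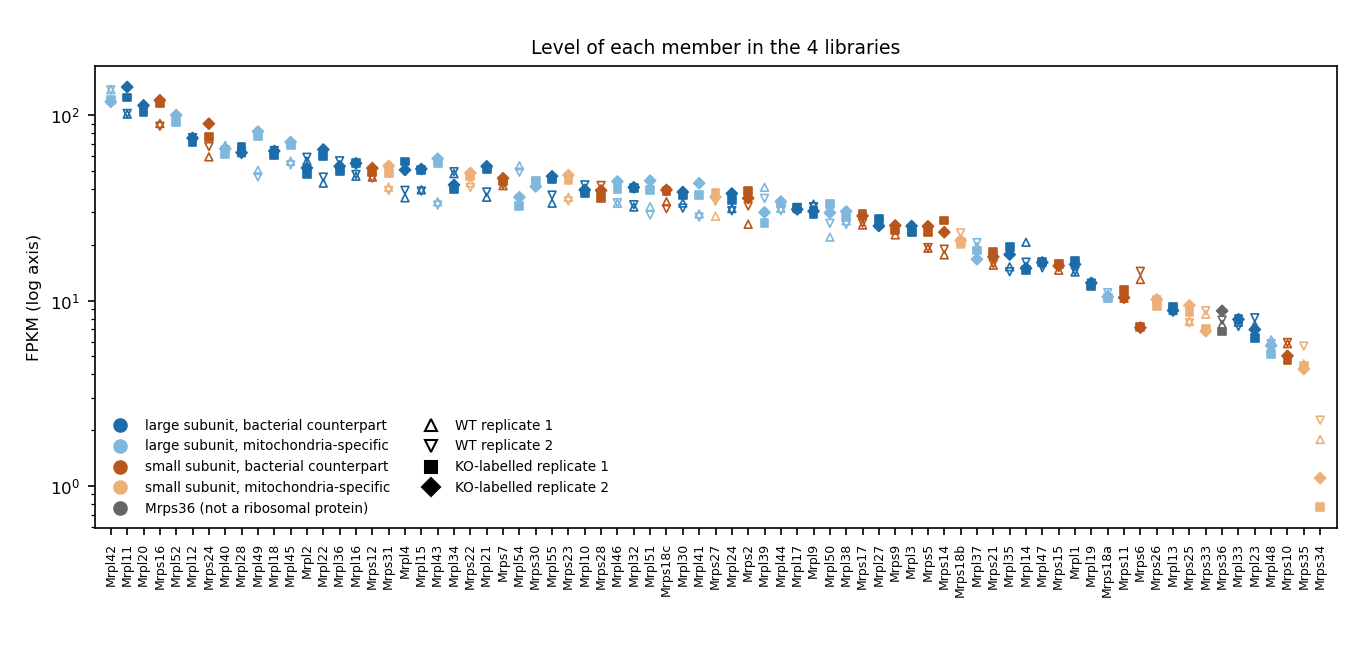
Level in FPKM (log axis) of 75 members, ordered by the mean of the 4 libraries, with open symbols for WT and filled symbols for KO-labelled libraries and colours for subunit and class. *Mrpl53* (mean 0.025 FPKM) is below the axis, most members lie between 10 and 100 FPKM, and *Mrps34* stands apart at the low end.

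At the low end stood *Mrpl53*, *Mrps34* and *Mrps35*. *Mrpl53*, which encodes a mitochondria-specific large subunit protein, had 0 and 1 raw counts in WT and 1 and 2 in the KO-labelled libraries. It was the only member without an adjusted p. Counts this low do not show that it is silent, because 87.1% of its annotated exon bases lie in exons of *Ccdc142* on the same strand and how reads shared by both genes were counted is not given in the sources used here. *Ccdc142* had 47.7 to 98.0 normalized counts. *Mrps34*, a mitochondria-specific protein of the small subunit, had 1.78 and 2.27 FPKM in WT and 0.770 and 1.10 in the KO-labelled libraries. Exons of *Nme3* on the same strand cover 37.0% of its exon bases, and exons of *Mapk8ip3* on the opposite strand cover 63.4%. *Nme3* itself had 0 raw counts in every library. The level of *Mrps34* is therefore uncertain as well. *Mrps35*, a mitochondria-specific small subunit protein without such an overlap, had 4.57 and 5.69 FPKM in WT and 4.47 and 4.28 in the KO-labelled libraries.

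More members were higher than lower in the KO-labelled libraries, and among tested members only the change of *Mrps34* reached 2-fold. DESeq2 called 28 of the 75 tested members higher (37.3%) and 6 lower (8.0%) at an adjusted p under 0.05, whatever the fold, and 41 passed in neither direction. Over all 17710 genes tested, 16.4% were higher and 15.8% lower by the same rule. Members are well expressed, and 72 of the 76 averaged 500 normalized counts or more over the 4 libraries. Among the 8551 protein-coding genes at that level 27.4% were higher and 20.0% lower, so the share of higher members was above that of such genes and the share of lower members below it, as a description with no test. At the thresholds of the study, a fold of at least 2 with an adjusted p under 0.001, DESeq2 and edgeR called 0 members in either direction, while DESeq2 called 1.36% of all genes tested as higher and 3.15% as lower. Without the fold minimum DESeq2 called 18 members higher and 3 lower, beside 8.46% and 8.87% of all genes tested. At an unadjusted p under 0.05 the fold minimum was met by 0 higher members and 1 lower member, *Mrps34*, which passed both thresholds when genes with low counts were filtered out first. At an adjusted p under 0.05 edgeR called all 34 of the members that DESeq2 called, and its counts were 28 higher and 11 lower, while it called 19.4% of all genes it tested higher and 21.6% lower. Leaving out 1 library leaves fewer samples and fewer genes tested. Without WT replicate 1 DESeq2 called 16 members higher and 4 lower, beside 11.6% and 11.0% of all genes tested. These counts were 18 and 3 without WT replicate 2, beside 12.1% and 10.5%. They were 18 and 3 without KO-labelled replicate 1, beside 12.1% and 11.7%, and 13 and 4 without KO-labelled replicate 2, beside 10.8% and 12.0%.

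The median log2 fold change (KO-labelled minus WT) of members was 0.086, beside 0.005 over all genes tested and 0.056 over protein-coding genes averaging 500 or more. Values ran from -1.11 for *Mrps34* to 0.76 for *Mrpl43*, and 44 of 75 lay within 0.25 of 0. The members together took 0.455% and 0.456% of all counts in WT and 0.501% and 0.515% in the KO-labelled libraries. In the KO-labelled group this share was higher by 0.0522 percentage points, and the exact two-sided permutation test gave p = 0.333, the smallest that 2 libraries against 2 allow. In 39 members (52.0%) both KO-labelled libraries were above both WT libraries, and in 20 (26.7%) both were below. The same held for 35.4% and 34.8% of all genes tested, and for 45.0% and 33.4% of protein-coding genes averaging 500 or more. The median difference between replicates of a member was 0.07 on the log2 scale in WT and 0.10 in the KO-labelled group.

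**Figure D2:**
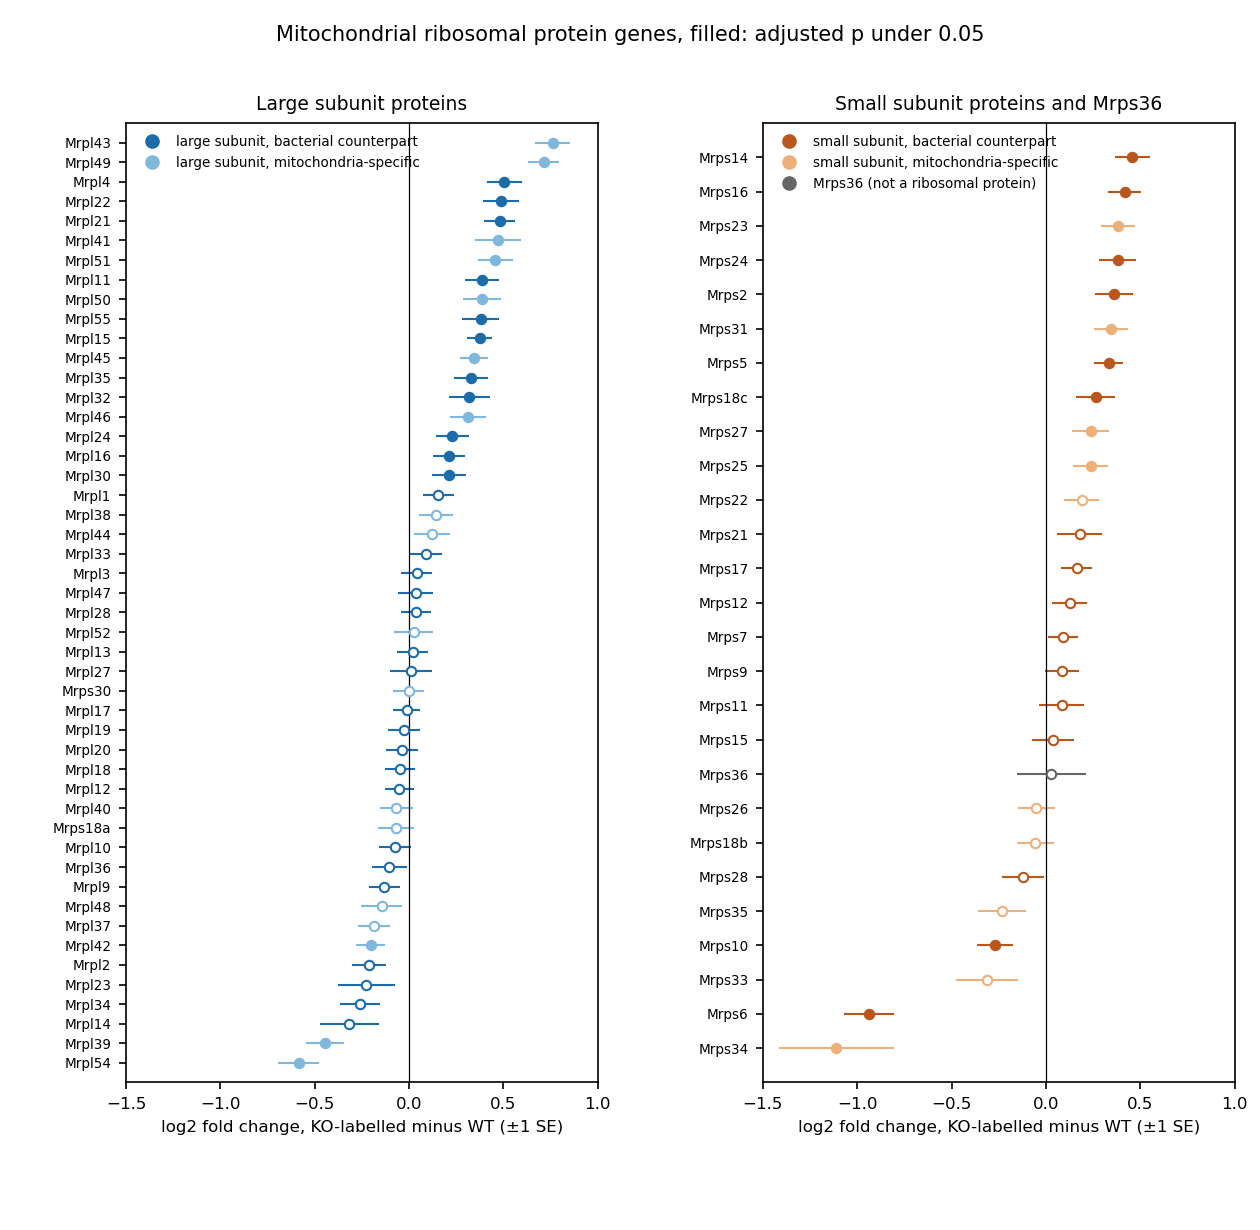
Log2 fold change (KO-labelled minus WT) with SE for each of the 75 tested members, by subunit and class, filled where the DESeq2 adjusted p was under 0.05. Most points lie within 0.25 of 0, 28 filled points lie to the right and 6 to the left, and *Mrps34* and *Mrps6* lie farthest left.

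Of the large subunit members with a bacterial counterpart, DESeq2 called 11 of 30 higher and 0 lower, with 3 lower at an unadjusted p under 0.05 and 3 lower by edgeR. The median log2 fold change was 0.036 over the large subunit as a whole. *Mrpl4* and *Mrpl22* encode proteins that reach into the wall of the peptide exit tunnel. *Mrpl4* had 2243 and 2416 normalized counts in WT and 3451 and 3160 in the KO-labelled libraries. No library of either group overlapped the other group, with a log2 fold change of 0.50 ± 0.09 (adjusted p = 7.87e-07, DESeq2). Near-identical copies elsewhere in the genome cover 32.0% of its exon bases, so part of its reads may have been shared. *Mrpl22* rose from 2055 and 2174 to 2822 and 3109 normalized counts, by 0.49 ± 0.10 on the log2 scale (adjusted p = 3.19e-06, DESeq2), with such copies over 63.2% of its exon bases.

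*Mrpl21* had 3536 and 3703 normalized counts in WT and 4920 and 5174 in the KO-labelled libraries. Its log2 fold change was 0.48 ± 0.08 (adjusted p = 3.97e-08, DESeq2), but after removal of the median change of its chromosome it was 0.09 with an adjusted p of 0.435, and copies cover 24.8% of its exon bases. *Mrpl15*, a protein of the large subunit core, had no copies or overlapping genes and the highest counts of the named members. It had 10933 and 10562 normalized counts in WT and 13748 and 14107 in the KO-labelled libraries, which did not overlap. This gave a log2 fold change of 0.37 ± 0.07 (adjusted p = 3.61e-07, DESeq2), and 0.28 with the chromosome median removed (adjusted p = 0.000261). *Mrpl11*, the stalk base protein, was also higher by 0.39 ± 0.09 (adjusted p = 0.000109, DESeq2), but its value was 0.001 after removal of the chromosome median and it lost the call when KO-labelled replicate 2 was left out.

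The other 19 members of this class passed no test in the DESeq2 fit with default scaling and filtering. Among them *Mrpl12*, the stalk protein that contacts elongation factors, had 5722 and 5541 normalized counts in WT and 5259 and 5599 in the KO-labelled libraries, and *Mrpl20* had 6071 and 5553 against 5379 and 5943. In both genes the groups overlapped. *Mrpl34* had 1521 and 1529 against 1229 and 1316, with an adjusted p of 0.0502, and *Mrpl2*, a protein near the peptidyl transferase centre, had 3228 and 3317 against 2704 and 2950, with an adjusted p of 0.0531. Both were called lower by edgeR, with adjusted p-values of 0.0148 and 0.0236. With chromosome medians removed *Mrpl34*, *Mrpl10* and *Mrpl12* had log2 fold changes of -0.35, -0.23 and -0.21 (adjusted p = 0.00662, 0.0268 and 0.0261, DESeq2).

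Mitochondria-specific large subunit proteins included the largest rises among members. Of 18 tested, 7 were higher and 3 lower. *Mrpl43* had 2015 and 1898 normalized counts in WT and 3202 and 3431 in the KO-labelled libraries, a log2 fold change of 0.76 ± 0.09 (adjusted p = 6.18e-15, DESeq2). *Mrpl49* had 4243 and 3845 against 6395 and 6854, a log2 fold change of 0.71 ± 0.08 (adjusted p = 5.34e-16, DESeq2). Both genes lie on chromosome 19, and their values were 0.38 (adjusted p = 0.000477) and 0.33 (adjusted p = 0.000952) with its median removed. In the mm9 annotation *Mrpl43* spans chr19:45079504-45080932 in 3 exons on the minus strand, and 8.0% of its exon bases lie opposite *Peo1*. *Mrpl49* spans chr19:6053630-6057758 in 4 exons on the minus strand, with 4.8% opposite *Syvn1*.

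*Mrpl51* had 5248 and 4647 normalized counts in WT and 6355 and 7224 in the KO-labelled libraries, a log2 fold change of 0.46 ± 0.09 (adjusted p = 4.91e-06, DESeq2) that was 0.40 with the chromosome median removed. Copies cover 28.5% of its exon bases. *Mrpl50* lies on chromosome 4, where most genes were lower, and had 2264 and 2640 normalized counts in WT and 3356 and 3055 in the KO-labelled libraries. Its log2 fold change of 0.39 ± 0.10 (adjusted p = 0.000832, DESeq2) became 0.60 (adjusted p = 5.52e-08) with the chromosome median removed, the highest signed value of any tested member in that fit. *Mrpl50* was chosen after its values were seen.

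The 3 lower members of this class were *Mrpl54*, *Mrpl39* and *Mrpl42*. *Mrpl54* fell from 2146 and 1944 to 1276 and 1447 normalized counts, with a log2 fold change of -0.59 ± 0.11 (adjusted p = 1.35e-06, DESeq2). *Mrpl39*, whose product is related to threonyl-tRNA synthetases, fell from 5039 and 4311 to 3177 and 3676, with a log2 fold change of -0.45 ± 0.10 (adjusted p = 7.38e-05, DESeq2). Neither passed with chromosome medians removed, where the values were -0.24 (adjusted p = 0.092) and -0.19 (adjusted p = 0.154). *Mrpl42* had 4459 and 4366 against 3838 and 3820, a log2 fold change of -0.20 ± 0.08 (adjusted p = 0.031, DESeq2), and its sign turned to 0.14 in that fit. It lost the call when any 1 library was left out. *Mrps30* and *Mrps18a*, large subunit members in spite of their symbols, passed no test (adjusted p = 0.988 and 0.65, DESeq2). *Mrps30* had 3277 and 3255 normalized counts in WT and 3338 and 3183 in the KO-labelled libraries, and *Mrps18a* 1938 and 1944 against 1822 and 1876.

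**Figure D3:**
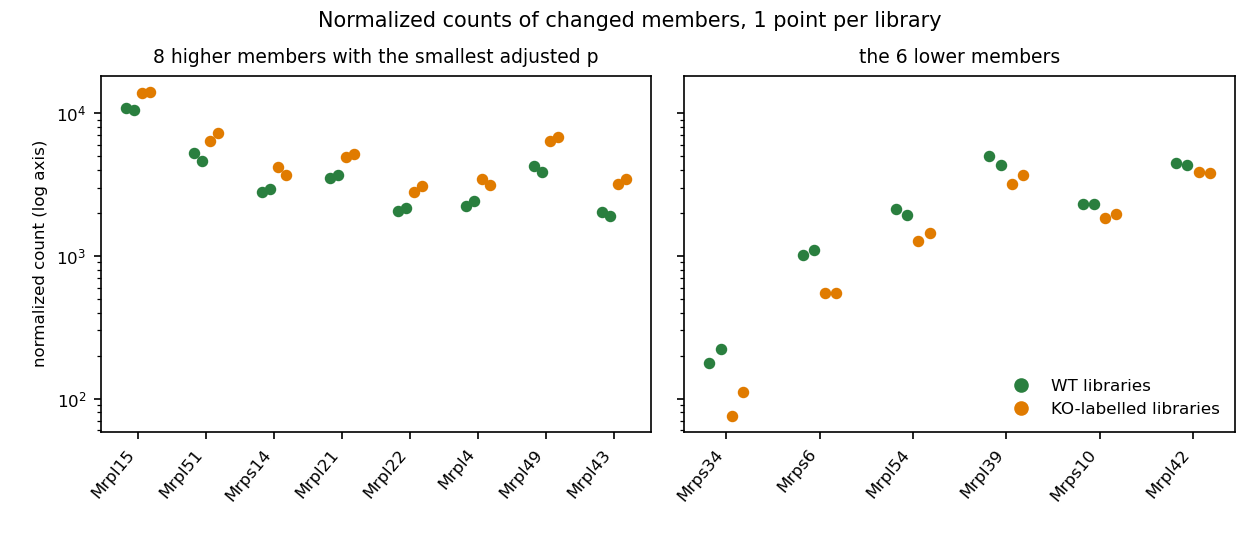
Normalized counts (log axis) of the 8 higher members with the smallest adjusted p and of all 6 lower members, with 1 point per library (green WT, orange KO-labelled). In each gene both KO-labelled points lie on the same side of both WT points, and *Mrps34* lies below the rest at 75.8 to 223 counts.

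Small subunit members divided in a similar way, with 10 of 26 higher and 3 lower and a median log2 fold change of 0.14. Among those with a bacterial counterpart 6 of 16 were higher and 2 lower. *Mrps14*, a protein of the small subunit head, had 2800 and 2948 normalized counts in WT and 4202 and 3696 in the KO-labelled libraries, a log2 fold change of 0.46 ± 0.09 (adjusted p = 7.6e-06, DESeq2) that was 0.37 with its chromosome median removed. *Mrps12*, a protein of the decoding centre, had 2351 and 2279 against 2434 and 2616 and passed no test (adjusted p = 0.335, DESeq2).

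*Mrps6*, a protein of the small subunit platform, was the lower member with the smallest adjusted p. It had 1006 and 1093 normalized counts in WT and 546 and 551 in the KO-labelled libraries, so that each KO-labelled library held fewer counts than either WT library by a wide margin. The log2 fold change was -0.94 ± 0.13 (adjusted p = 6.1e-11, DESeq2) and -0.68 (adjusted p = 6.78e-06) with the chromosome median removed. At an adjusted p under 0.05 it was called under every alternative tried. *Mrps6* spans chr16:92058515-92112472 of mm9 on the plus strand, and 43.8% of its exon bases lie in exons of *Slc5a3*, a myo-inositol transporter gene on the same strand. *Slc5a3* had 510 and 591 normalized counts in WT and 320 and 329 in the KO-labelled libraries, a log2 fold change of -0.76 ± 0.17 (adjusted p = 9.73e-05, DESeq2), and the part of shared reads was not tested. *Mrps10*, also of the small subunit head, had 2303 and 2293 against 1845 and 1970, a log2 fold change of -0.27 ± 0.10 (adjusted p = 0.0182, DESeq2) that lost the call with chromosome medians removed and when any 1 library was left out.

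Among the 10 mitochondria-specific small subunit members 4 were higher, namely *Mrps23*, *Mrps31*, *Mrps25* and *Mrps27* at log2 fold changes from 0.24 to 0.38, and 1 was lower. *Mrps25* lost the call with chromosome medians removed, at 0.18 (adjusted p = 0.140, DESeq2). The lower member was *Mrps34*, with 179 and 223 normalized counts in WT and 75.8 and 110 in the KO-labelled libraries. Its log2 fold change was -1.11 ± 0.31 (adjusted p = 0.00155, DESeq2), the largest in size of any tested member, on the smallest counts of any. Its exons overlap those of *Nme3* and *Mapk8ip3* as given above, so this change is uncertain too. Without WT replicate 2 the adjusted p was 0.160 at a log2 fold change of -0.94, and without KO-labelled replicate 1 it was 0.124 at -0.86. Of the genes named for the same bacterial protein, *Mrps18c* rose by 0.26 ± 0.10 on the log2 scale (adjusted p = 0.0336, DESeq2) and lost the call when any 1 library was left out. *Mrps18b* had a log2 fold change of -0.06 ± 0.10 (adjusted p = 0.736), and copies cover 30.7% and 45.2% of the exon bases of these genes. *Mrps36*, the dehydrogenase subunit, had 461 and 478 against 414 and 544 normalized counts and passed no test (adjusted p = 0.936, DESeq2).

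Members on several chromosomes were higher or lower along with the other genes of the chromosome, with exceptions. Chromosome medians were taken over all genes averaging 50 normalized counts or more. On the 5 chromosomes with a median below 0 (4, 10, 13, 16 and 17), 3 of 22 tested members were higher and all 6 lower members were found there. On the 12 chromosomes with a median above 0, DESeq2 with default scaling and filtering called 25 of 53 higher and 0 lower. There 1 was lower at an unadjusted p under 0.05 and 2 were lower by edgeR. Protein-coding genes averaging 500 or more on the same chromosomes showed the same tilt, with 9.23% higher and 39.6% lower on the first set and 34.4% higher and 11.6% lower on the second. Across the 75 members the log2 fold change and the chromosome median had a Pearson r of 0.62 and a Spearman rho of 0.56, with r = 0.55 over the 70 members off chromosome 19. Members of 1 chromosome share its median and all share the same 4 libraries, so these are descriptions.

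Chromosome 19 had the highest median, 0.38 over 457 genes, and all 5 of its members, *Mrpl16*, *Mrpl11*, *Mrpl21*, *Mrpl49* and *Mrpl43*, were higher at log2 fold changes from 0.21 to 0.76. On chromosome 11, with a median of 0.16, 5 of 10 members were higher and the other 5 were not called. On chromosome 10, with a median of -0.35, *Mrpl54* and *Mrpl42* were both lower. On chromosome 16, with a median of -0.23, *Mrps6* and *Mrpl39* were lower and *Mrpl40* was not called. On chromosome 17, with a median of -0.14, *Mrps34* and *Mrps10* were lower. The other 6 of 8 were not called by DESeq2 with default scaling and filtering, although edgeR called *Mrpl2* and *Mrpl14* lower. By DESeq2 calls the exceptions were on chromosome 4, with a median of -0.21, where *Mrpl50* was higher and the other 3 of 4 members were not called by DESeq2, although edgeR called *Mrpl37* lower, and on chromosome 13, with a median of -0.02, where *Mrps27* and *Mrpl32* were higher and the other 3 of 5 were called by neither tool. By edgeR *Mrps33* and *Mrpl34* were also lower (adjusted p = 0.0324 and 0.0148), on chromosomes 6 and 8 with medians of 0.06 and 0.10. No member tested lies on chromosome 12, 18 or X.

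**Figure D4:**
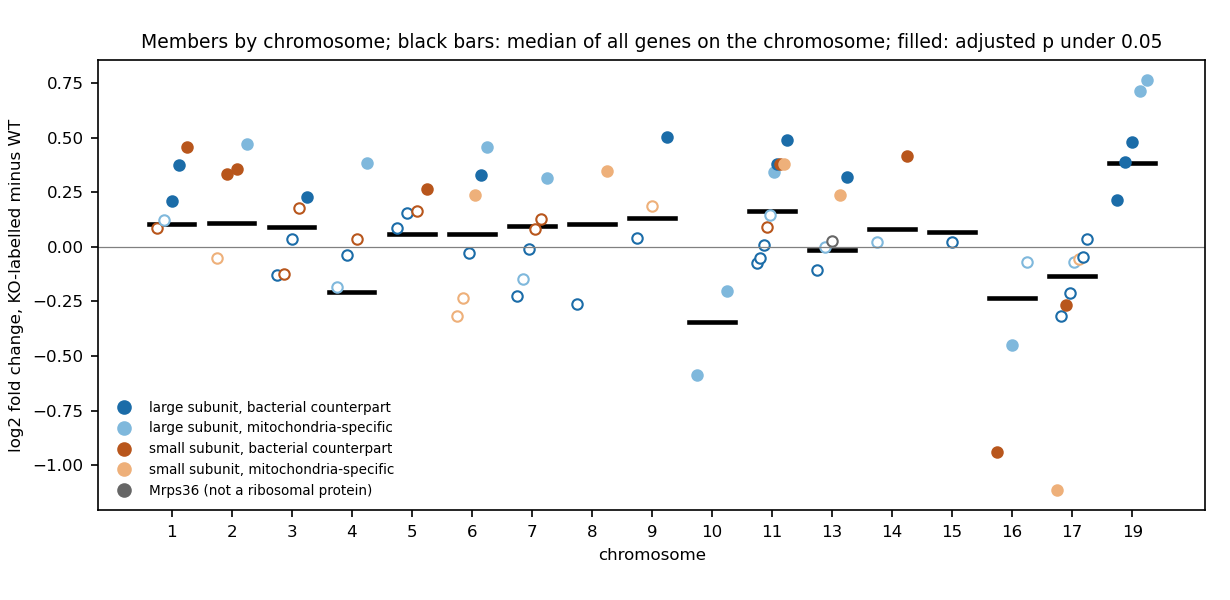
Log2 fold change (KO-labelled minus WT) of each tested member by chromosome, with a black bar at the median of all genes on that chromosome and filled points where the adjusted p was under 0.05. All 5 members on chromosome 19 are filled and above 0, and the 6 filled points below 0 lie on chromosomes 10, 16 and 17.

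When the median of each chromosome was removed in the fit, 18 members were higher and 5 lower, against 12.7% and 14.5% of the 17230 genes tested in that fit. Of the 34 members called before, 20 were called again in the same direction, 18 higher and 2 lower. The lower ones were *Mrps34* and *Mrps6*, and *Mrpl34*, *Mrpl10* and *Mrpl12* were called lower here and not with all genes scaled together. *Mrpl42* and *Mrpl16* changed sign, to 0.14 and -0.17, without passing the test. Other members not called again were *Mrpl54*, *Mrpl39* and *Mrps10* among the lower and *Mrpl11*, *Mrpl21*, *Mrpl24*, *Mrpl30*, *Mrpl46*, *Mrpl55*, *Mrps18c*, *Mrps24* and *Mrps25* among the higher. The SD of the log2 fold change over members was 0.32 and fell to 0.25 when each member's chromosome median was subtracted, and the median over members in the refit was 0.05, beside -0.01 over all genes tested and 0.03 over protein-coding genes averaging 500 or more. With chromosome medians removed there were still more higher than lower members, by a smaller margin.

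**Figure D5:**
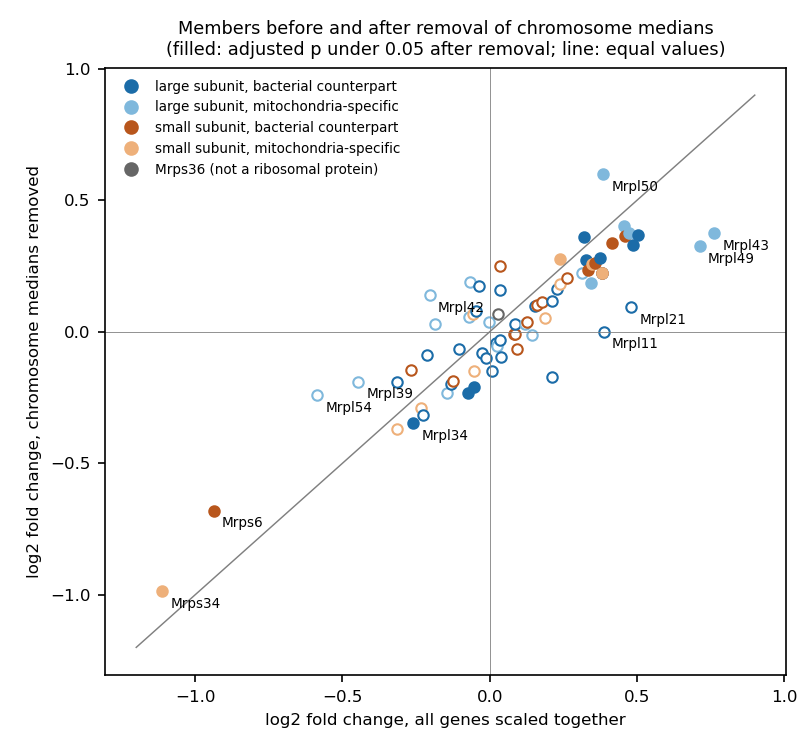
Log2 fold change of the 75 tested members with all genes scaled together (horizontal) and with chromosome medians removed (vertical), filled where the adjusted p was under 0.05 after removal. *Mrps6* and *Mrps34* remain far below 0, *Mrpl43* and *Mrpl49* fall to 0.38 and 0.33, *Mrpl11* falls to 0.001 and *Mrpl50* rises to 0.60.

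Reads that may be shared with other sequences touch many members. Near-identical copies elsewhere in the genome (at least 97% identity over at least 75 bases) were found for 27 members and covered over 20% of the exon bases of 12. Exons of another gene overlapped those of 6 members on the same strand and of 22 on the opposite strand. Among the 35 tested members with neither copies nor overlaps 12 were higher and 3 lower, with a median log2 fold change of 0.09, the same as over all members.

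Some members share a promoter region with a neighbour read in the opposite direction. Pairs were counted where the neighbour started on the opposite strand within 1000 bases upstream of the member's start, or at most 100 bases downstream of it. *Mrpl43* with *Peo1* and *Mrpl46* with *Mrps11* overlapped by more and were left out. In 16 pairs both genes were tested, and 12 of these had log2 fold changes of the same sign. So did 69.3% of the 740 such protein-coding pairs without a member. In 6 pairs both genes passed the test, and in all 6 they had the same direction. Among the pairs without a member both genes passed in 133, with the same direction in 121 of those, so a shared direction was common to such pairs. *Mrpl51* (0.46) stood beside *Ncapd2*, a condensin subunit, at 0.50, and *Mrpl49* (0.71) beside *Fau*, a cytosolic ribosomal protein fused to a ubiquitin-like domain, at 0.21. *Mrpl41* (0.47) stood beside *Pnpla7* at 0.82, *Mrps18c* (0.26) beside the helicase gene *Helq* at 0.43, *Mrpl30* (0.21) beside *Mitd1* at 0.33 and *Mrpl32* (0.32) beside the proteasome subunit gene *Psma2* at 0.16. All 6 pairs were higher in the KO-labelled libraries. Both genes of a pair share a chromosome, and with chromosome medians removed both passed in 3 pairs, those of *Mrpl51*, *Mrpl41* and *Mrpl32*. *Mrps18c* and *Mrpl30* lost the call and *Fau* was at -0.18 (adjusted p = 0.0523, DESeq2). In that fit both genes passed in 64 of 723 pairs without a member (8.85%), with the same direction in 55 of those. *Mrps34* had a neighbour, *Eme2*, with a log2 fold change of -0.24 ± 0.24 that passed no test.

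Some proteins of the same ribosome that carry other symbols were higher. Of 7 such genes DESeq2 called 3 higher (42.9%) and 0 lower, edgeR gave the same counts, and 0 were lower at an unadjusted p under 0.05. Beside this and the lists below, 27.4% of protein-coding genes averaging 500 normalized counts or more were higher and 20.0% lower. These shares are descriptions with no test. *Ptcd3*, a pentatricopeptide repeat protein of the small subunit, had 10557 and 9906 normalized counts in WT and 13784 and 13870 in the KO-labelled libraries, a log2 fold change of 0.43 ± 0.07 (adjusted p = 6.14e-09, DESeq2). *Dap3*, a GTP-binding small subunit protein, was higher by 0.37 ± 0.08 and *Chchd1*, another small subunit protein, by 0.27 ± 0.09. Among 22 genes for assembly and ribosomal RNA modification 7 were higher (31.8%) and 1 lower (4.55%). *Ngrn*, needed for the large ribosomal RNA, was higher by 0.50 ± 0.09, the RNA helicase gene *Dhx30* by 0.37 ± 0.07 and *Ddx28*, a DEAD-box protein of large subunit assembly, by 0.35 ± 0.11, while *Rbfa*, a small subunit maturation factor, fell by 0.37 on the log2 scale (adjusted p = 8.62e-05, DESeq2). *Chchd1* and *Ddx28* no longer passed with chromosome medians removed (adjusted p = 0.0976 and 0.069, DESeq2), and 3 assembly genes were higher and 2 lower in that fit.

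Of 13 translation factors and helpers DESeq2 called 3 higher (23.1%) and 0 lower, with 1 lower at an unadjusted p under 0.05 and 1 lower by edgeR. *Tufm*, the mitochondrial elongation factor Tu, had 6259 and 6005 normalized counts in WT and 9305 and 9083 in the KO-labelled libraries, a log2 fold change of 0.58 ± 0.07 (adjusted p = 1.26e-14, DESeq2). The inner membrane insertase gene *Oxa1l* was higher by 0.31 ± 0.09 and *Gfm1*, an elongation factor G, by 0.24 ± 0.08. Of 11 genes for mitochondrial DNA upkeep and RNA synthesis 4 were higher (36.4%) and 1 lower (9.09%). *Peo1*, which encodes the mitochondrial DNA helicase Twinkle and lies opposite *Mrpl43*, was higher by 0.63 ± 0.08, the transfer RNA processing gene *Elac2* by 0.36 ± 0.07 and the single-stranded DNA-binding protein gene *Ssbp1* by 0.31 ± 0.08, whereas the RNA helicase gene *Supv3l1* had a log2 fold change of -0.24 ± 0.09 (adjusted p = 0.0174, DESeq2). In the fit with chromosome medians removed 3 translation factors were higher and 1 lower. The lower one was *Mrrf*, a ribosome recycling factor, at -0.37 (adjusted p = 0.00969, DESeq2), *Gfm2*, another elongation factor G, was gained at 0.20 (adjusted p = 0.045) and *Gfm1* no longer passed, at 0.17 (adjusted p = 0.0919). *Supv3l1* on chromosome 10 did not pass in that fit either, at 0.10 (adjusted p = 0.427, DESeq2), and *Peo1* on chromosome 19 was higher by 0.24 (adjusted p = 0.0192).

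Of 10 tested genes for factors known to regulate mitochondrial biogenesis or cell growth, 1 was higher and 1 lower (10% each). *Pprc1*, a coactivator of the PGC-1 family, had 7796 and 7815 normalized counts in WT and 13582 and 11361 in the KO-labelled libraries, a log2 fold change of 0.68 ± 0.09 (adjusted p = 2.67e-13, DESeq2). It lies on chromosome 19, and with chromosome medians removed the log2 fold change was 0.29 (adjusted p = 0.00614, DESeq2). *Mycn*, a growth-promoting transcription factor of the Myc family, had 12739.6 and 14399.6 against 4312 and 4816, a log2 fold change of -1.57 ± 0.09 (adjusted p = 4.99e-73, DESeq2). *Nrf1*, *Gabpa* and *Yy1*, whose motifs are counted above, were within 0.15 of 0 on the log2 scale and passed no DESeq2 test with all genes scaled together. With chromosome medians removed 2 genes of this list were higher and 2 lower. The calls gained were *Gabpa*, higher by 0.26 (adjusted p = 0.0419, DESeq2), and *Esrra*, an estrogen-related receptor gene, at a log2 fold change of -0.34 (adjusted p = 0.0169).

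Transcripts of the mitochondrial genome itself were lower where they passed the test. Of its 9 tested messages DESeq2 called 0 higher and 4 lower, as did edgeR, and 0 were higher at an unadjusted p under 0.05, with a median log2 fold change of -0.24. This median was -0.11 without WT replicate 1, -0.36 without WT replicate 2 and -0.16 without KO-labelled replicate 2. The messages not tested, *mt-Atp6*, *mt-Atp8*, *mt-Co2* and *mt-Nd4l*, had at most 3 raw counts in any library. *mt-Co3*, which was tested, had 9 to 13, while *mt-Co1* had 175915 to 307932. How multiply mapped reads were counted is not given, and its part in these levels was not tested. *mt-Nd5*, a subunit of complex I, had a log2 fold change of -0.33 ± 0.09 (adjusted p = 0.00232, DESeq2), *mt-Nd1* of -0.27 ± 0.09 and *mt-Nd6* of -0.24 ± 0.10, each another complex I subunit. The 2 mitochondrial ribosomal RNAs took 1.88% and 0.977% of counts in WT and 0.724% and 0.718% in the KO-labelled libraries. Their log2 fold changes were -1.02 for *mt-Rnr1* and -0.99 for *mt-Rnr2* and neither passed the DESeq2 test (adjusted p = 0.109 and 0.0888), while edgeR called both lower. All libraries had been depleted of ribosomal RNA, and WT replicate 1 stood above the others.

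The counts for related gene groups are set beside these. Of 79 tested cytosolic ribosomal protein genes 4 were higher (5.06%) and 32 lower (40.5%), with a median log2 fold change of -0.07. Genes of this family are known for their many processed copies. Nuclear genes of oxidative phosphorylation encode the imported partners of the subunits made by the mitochondrial ribosome. Of 79 tested, 27 were higher (34.2%) and 8 lower (10.1%), with a median log2 fold change of 0.08. No test of the difference between these groups was made. With chromosome medians removed the cytosolic ribosomal protein genes had 2 higher and 26 lower, and the oxidative phosphorylation genes 16 higher and 1 lower.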

How the data were processed

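RNA-seq libraries were made with a stranded kit after depletion of ribosomal RNA in place of poly-A selection and read as paired ends. STAR was the aligner (mm9) and featureCounts the counter (GENCODE vM1), and what the authors deposited are raw counts for each gene without normalization. Versions, strand setting and treatment of multiply mapped reads are not given in the sources used here. Groups came from the sample labels and no column lacked a sample. All 37310 gene identifiers matched the annotation of the mm9 build, from which positions, exon lengths and overlaps were taken, 1-based.

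All genes were fitted together in DESeq2 1.42.0 (R 4.3.3), using its Wald test with group as the only term and its default scaling and filtering, with Benjamini-Hochberg adjustment over all genes tested, and members were read from that fit. Errors are SE of the log2 fold change, KO-labelled minus WT. FPKM were computed from counts, exon length and total counts. Copies of member exons were searched with BLAST 2.17.0. Scripts were tested on simulated data. The alternatives were edgeR 4.0.16, size factors by TMM or by the upper quartile, a filter on genes without 10 counts in 2 libraries, a replicate block, removal of chromosome medians or of a length and GC trend, other thresholds and leaving out each library. Depth was 36667685 to 61908422 counts per library. *Mrpl53* and *Mrps34* had the fewest counts, and the part of depth and of the overlaps given above was not tested. Reads carry no molecular identifiers.

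The members and lists were chosen with earlier results of these data known. The naming rule took the 8 members with the smallest adjusted p in each direction (6 existed among the lower), the 3 of highest and lowest FPKM, the 3 with the largest and smallest log2 fold change, members with a mean under 50, *Mrps18a*, *Mrps18b*, *Mrps18c*, *Mrps30* and *Mrps36*, *Spen*, and up to 3 genes per direction in each companion list. Other genes named were chosen after their values were seen. In the companion lists *Noa1*, *Tefm*, *Slirp* and *Twnk* had no entry under these symbols, *Twnk* being *Peo1* in this annotation, and *Nsun4* and *Dab2* had 2 identifiers each.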

Additional observations from a re-analysis of the deposited data

How the results depend on the processing

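Of 242 values with an adjusted p of the named members under alternative settings, 215 kept their side of the threshold (11 of them, of members not called, changed sign), 26 lost the call and 1 called value changed sign, *Mrpl42* at 0.14 with chromosome medians removed. The 9 values of *Mrpl53*, which had no adjusted p, ran from 0.17 to 2.32. DESeq2 calls given above are those with default scaling and filtering unless another fit is named. edgeR called 11 members lower, against 6 with DESeq2, and called 7067 of 17261 genes in all, against 5714 of 17710. With TMM size factors DESeq2 called 25 members higher and 8 lower, beside 5653 of 17710 genes in all. The low-count filter also gave 25 and 8, beside 5963 of 17420. When the fold minimum was dropped from the thresholds of the study 18 members were higher and 3 lower, beside 8.46% and 8.87% of all genes tested. With a low-count filter 1 member (*Mrps34*) passed the fold and p thresholds of the study as lower. With chromosome medians removed 18 members were higher, and the median log2 fold change was 0.054 over members, 0.086 over the small subunit, 0.092 over assembly genes, 0.20 over mitochondrial DNA expression genes and 0.060 over regulators. With upper-quartile size factors, which moved the median of genes averaging 50 normalized counts or more from 0.03 to 0.06, the medians were 0.12 over members, 0.073 over the large subunit, 0.18 over the small subunit, 0.18 over assembly genes, 0.15 over mitochondrial DNA expression genes and 0.059 over regulators. With a length and GC trend removed they were 0.12 over the small subunit, 0.11 over assembly genes and 0.072 over mitochondrial DNA expression genes. The cause of these shifts was not tested.

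Leaving out 1 library at a time, in fits where the lone library is assumed to vary like the others, gave 13 to 18 higher and 3 to 4 lower members with fewer genes tested and fewer samples. Higher members numbered 16 without WT replicate 1, 18 without WT replicate 2, 18 without KO-labelled replicate 1 and 13 without KO-labelled replicate 2. The median log2 fold change ranged from 0.073 to 0.140 over members (the highest without KO-labelled replicate 1), 0.022 to 0.075 over the large subunit, 0.014 (without KO-labelled replicate 2) to 0.224 (without KO-labelled replicate 1) over ribosomal proteins with other symbols, 0.111 to 0.205 over assembly genes, 0.042 to 0.188 over translation factors, 0.101 to 0.146 over mitochondrial DNA expression genes and 0.020 to 0.099 over regulators. Same-numbered libraries did not deviate together (correlation -0.018), so the numbers were not taken as pairs. With the replicate number as a block, 20 members were higher and 4 lower, with 3830 of 15789 genes called, and the median stayed at 0.086.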
